A study of Homo sapiens with 3 samples.

Results

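Genes of serine synthesis and of the folate pathway that carries single carbon units were compared between TRAF7 knockdown and control in RNA sequencing libraries of cells labelled KG1a, a human acute myeloid leukaemia line. The members were the 10 enzyme genes PHGDH, PSAT1, PSPH, SHMT1, SHMT2, MTHFD1, MTHFD2, MTHFD1L, ALDH1L1 and ALDH1L2, taken by symbol from the 58735 genes of the deposited tables, and all 10 had a mean of at least 1 FPKM (reads scaled by exon length and library size). The knockdown group held 2 libraries, numbered 1 and 2, of cells given a lentivirus with a short hairpin RNA against TRAF7 and carrying the genotype label TRAF7 knockdown. The control group held 1 library of cells given a lentivirus with a control hairpin and carrying the genotype label wild type. All 3 libraries come from the same line and share a batch label. The labels give neither the hairpin sequences, nor the time after infection, nor whether the knockdown libraries came from separate cultures or hairpins, so a p-value here covers no more than how far these samples differ, and that spread may be technical.

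Serine is made in the cytosol from an intermediate of glycolysis in a chain of reactions: PHGDH oxidises it, PSAT1 transfers an amino group to it and PSPH removes its phosphate. Serine hydroxymethyltransferases, SHMT1 in the cytosol and SHMT2 in mitochondria, then pass a carbon of serine to tetrahydrofolate and leave glycine. In mitochondria MTHFD2 oxidises the folate-bound carbon, MTHFD1L releases it as formate, and ALDH1L2 can instead oxidise it to carbon dioxide with formation of NADPH. In the cytosol MTHFD1 carries out the matching interconversions in 1 protein and loads formate back on folate, and ALDH1L1 is the cytosolic counterpart of ALDH1L2. Proliferating cells draw on these units to make purines and thymidylate, and the transcription factor ATF4 is known to act on several of the genes.

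Assigned reads per library, recovered from the FPKM values as described under the processing, numbered between 16014485 and 16254461. TRAF7 itself stood at 33.6% of the control level in knockdown 1 and 39.4% in knockdown 2. Of 6 genes taken to mark KG1a, CD34, the surface antigen for which the line is best known, had 1 and 10 reads in the knockdown libraries and 0 in the control, and the T-lineage antigen CD7 had 5 and 5 reads in the knockdown libraries and 9 in the control. The other 4 markers (PTPRC, SPN, LMO2 and MYB) were at 5.60 FPKM or more in every library. The label is therefore not borne out by CD34 and CD7, and the cells are called here by their label only. Of 4 erythroid markers 3 were measured, and their list summed to 99.6 and 90.7 FPKM in the knockdown libraries, against 38.0 FPKM in the control. The higher sum came from alpha-globin (HBA1, which has a near-identical neighbour, HBA2), at 90.2 and 74.8 FPKM in the knockdown libraries and 22.9 FPKM in the control. The stromal and epithelial list (2 of 7 measured, EPCAM and KRT19) summed to 45.1 and 54.3 FPKM in the knockdown libraries and 56.9 FPKM in the control. EPCAM was at 23.5 and 19.99 FPKM in the knockdown libraries and 19.96 FPKM in the control. KRT19 went the other way, at 21.2 and 33.6 FPKM in the knockdown libraries and 36.2 FPKM in the control. The list of T and B cell markers (1 of 4 measured, CD3D) summed to 5.33 and 6.69 FPKM in the knockdown libraries and 7.33 FPKM in the control. The part of these differences in the results below was not tested.

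Among the 10 enzyme genes, PHGDH and ALDH1L2 stood lowest relative to the control in both knockdown libraries, MTHFD1 and SHMT1 stood above it in both, and the other 6 were below it in knockdown 1 and between 97.6% and 120% of it in knockdown 2. By limma on log2(FPKM + 1), 0 of 10 passed an adjusted p of 0.05 over all 12640 genes tested, where 0% of genes were called. ALDH1L2 and PHGDH had an unadjusted p under 0.05 (0.00268 and 0.00757), as did 9.19% of all genes tested. By limma-voom on the recovered reads, 2 of 10 members were called, both lower, beside 0.659% of 15034 genes called lower, and 0 of 10 were called higher, beside 0.206%. Each fit has 1 residual degree of freedom, from the pair of knockdown libraries, and the lone control is assumed to vary as they do. Both fits also borrow variance from other genes, worth 4.74 prior degrees of freedom by limma and 35.5 by limma-voom. The p-values, those of limma-voom above all, thus rest mostly on the spread of other genes between the knockdown libraries. An exact permutation test of 2 libraries against 1 could not go below a one-sided p of 0.333, so none is given.

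**Figure D1:**
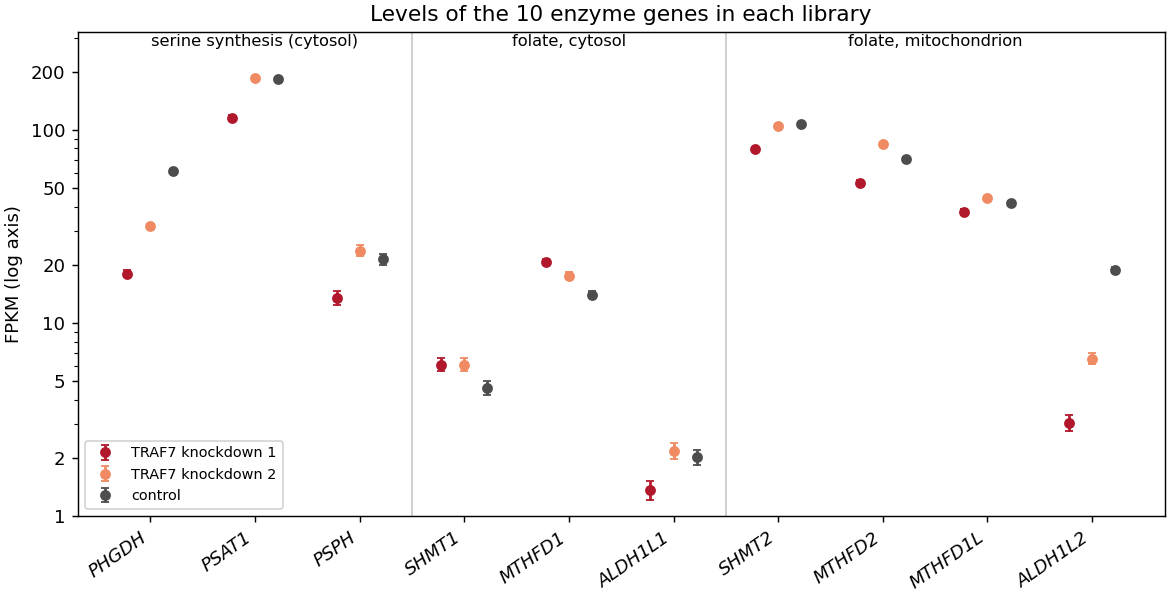
Level of each enzyme gene in FPKM (log axis) in TRAF7 knockdown 1, TRAF7 knockdown 2 and the control, with exact 95% Poisson intervals of the recovered reads as bars; genes are set apart by pathway and compartment. PHGDH and ALDH1L2 lie lower in both knockdown libraries than in the control, while SHMT1 and MTHFD1 lie higher in both.

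ALDH1L2, the mitochondrial formyltetrahydrofolate dehydrogenase (ENSG00000136010, chromosome 12, positions 105019784 to 105084577, minus strand, GRCh38), had 3.03 FPKM in knockdown 1 (95% Poisson interval 2.74 to 3.34, 401 reads), 6.51 FPKM in knockdown 2 (6.09 to 6.95, 900 reads) and 18.8 FPKM in the control (18.1 to 19.6, 2705 reads). The knockdown libraries thus held 16.1% and 34.5% of the control level, and the intervals of all 3 libraries were apart. Its log2 fold change was −1.85 ± 0.37 (SE; 95% interval −2.76 to −0.94; limma adjusted p = 0.403). By limma-voom it was −2.08 ± 0.25 (adjusted p = 9.81e-06), the smallest p of all 15034 genes in that fit. ALDH1L2 was the only member whose FPKM in each knockdown library differed 2-fold or more from the control. Thus 1 of 10 members was 2-fold lower in both, beside 1.11% of all genes tested, and 0 of 10 were 2-fold higher, beside 1.06%.

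PHGDH, which starts serine synthesis (ENSG00000092621, chromosome 1, 119648411 to 119744226, plus strand), had 18.0 FPKM in knockdown 1 (17.3 to 18.7, 2580 reads), 31.6 FPKM in knockdown 2 (30.7 to 32.5, 4732 reads) and 61.2 FPKM in the control (60.0 to 62.4, 9522 reads). These are 29.4% and 51.6% of the control level, so that knockdown 2 fell just short of a 2-fold difference. The log2 fold change was −1.32 ± 0.33 (SE; 95% interval −2.13 to −0.51; limma adjusted p = 0.407) and −1.36 ± 0.21 by limma-voom (adjusted p = 0.000182). The other enzymes of serine synthesis were low in knockdown 1 alone. PSAT1, the aminotransferase (ENSG00000135069, chromosome 9, 78297143 to 78330093, plus strand), had 115.1 FPKM in knockdown 1 (111.5 to 118.7, 3918 reads), 186.0 FPKM in knockdown 2 (181.6 to 190.6, 6619 reads) and 184.3 FPKM in the control (180.0 to 188.7, 6809 reads). PSPH, the phosphatase (ENSG00000146733, chromosome 7, 56011051 to 56051604, minus strand), had 13.5 FPKM in knockdown 1 (12.4 to 14.7, 581 reads), 23.7 FPKM in knockdown 2 (22.3 to 25.2, 1064 reads) and 21.3 FPKM in the control (20.03 to 22.7, 995 reads). For both genes the intervals of knockdown 2 and the control overlapped, and those of knockdown 1 lay below both. The fitted log2 fold changes were −0.33 (95% interval −1.03 to 0.37) for PSAT1 and −0.24 (−1.05 to 0.57) for PSPH, with limma adjusted p-values of 0.745 and 0.849. PSPH has an unprocessed pseudogene, PSPHP1, to which 41 and 40 reads were assigned in the knockdown libraries and 57 in the control, so a small part of its reads is uncertain.

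The start regions of PHGDH and PSAT1 are shown because these neighbours in the pathway differed in knockdown 2. Each window runs from 250 bases before to 50 bases after the annotated start, from the RefSeq table of promoters on GRCh38.p14, and 7 of the 10 members were matched in it, with PSPH, SHMT2 and ALDH1L2 not among them. Capitals mark matches on either strand to the CCAAT box (CCAAT), the E-box (CACGTG), the C/EBP-ATF response element (TGATGNAA) and the antioxidant response element (TGACNNNGC). Of all 35116 windows in the table, 34.6% hold a CCAAT match, 7.26% an E-box, 3.62% a C/EBP-ATF element and 13.3% an antioxidant element. PHGDH held 1 CCAAT match and PSAT1 held 3, and neither window held the other motifs as spelled here.
PHGDH, chr1:119711684-119711983, plus strand: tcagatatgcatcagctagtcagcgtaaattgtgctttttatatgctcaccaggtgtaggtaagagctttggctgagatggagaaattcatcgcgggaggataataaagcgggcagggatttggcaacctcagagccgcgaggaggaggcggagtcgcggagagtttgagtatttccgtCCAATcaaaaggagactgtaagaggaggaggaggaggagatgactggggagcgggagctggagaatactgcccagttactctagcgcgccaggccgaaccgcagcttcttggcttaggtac
PSAT1, chr9:78296875-78297174, plus strand: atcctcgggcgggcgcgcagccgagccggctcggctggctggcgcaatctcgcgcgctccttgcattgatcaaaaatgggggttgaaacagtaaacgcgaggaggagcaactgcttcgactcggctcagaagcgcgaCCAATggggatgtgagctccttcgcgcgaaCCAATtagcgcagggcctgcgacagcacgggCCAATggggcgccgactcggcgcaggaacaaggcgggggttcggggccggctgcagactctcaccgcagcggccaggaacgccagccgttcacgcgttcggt

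The mitochondrial folate enzymes other than ALDH1L2 were lower in knockdown 1 and close to or above the control in knockdown 2. SHMT2, which takes the carbon from serine in mitochondria (ENSG00000182199, chromosome 12, 57229327 to 57234935, plus strand), had 79.8 FPKM in knockdown 1 (77.8 to 81.8, 6006 reads), 104.4 FPKM in knockdown 2 (102.2 to 106.7, 8214 reads) and 107.0 FPKM in the control (104.8 to 109.3, 8741 reads). MTHFD2, the mitochondrial dehydrogenase and cyclohydrolase (ENSG00000065911, chromosome 2, 74198562 to 74217565, plus strand), had 53.3 FPKM in knockdown 1 (51.7 to 55.0, 4039 reads), 84.5 FPKM in knockdown 2 (82.4 to 86.5, 6688 reads) and 70.4 FPKM in the control (68.6 to 72.2, 5785 reads). The control level of MTHFD2 thus lay between those of the knockdown libraries, with all 3 intervals apart. MTHFD1L, the mitochondrial formate synthetase (ENSG00000120254, chromosome 6, 150865549 to 151101887, plus strand), had 37.4 FPKM in knockdown 1 (36.0 to 38.8, 2922 reads), 44.1 FPKM in knockdown 2 (42.7 to 45.6, 3602 reads) and 41.6 FPKM in the control (40.2 to 43.0, 3525 reads). The fitted log2 fold changes were −0.23 (95% interval −0.73 to 0.28) for SHMT2, −0.07 (−0.77 to 0.63) for MTHFD2 and −0.03 (−0.49 to 0.43) for MTHFD1L, with limma adjusted p-values of 0.755, 0.964 and 0.970. These intervals leave room for differences in either direction. Exons of MTHFD2 share 27.2% of their bases with exons of SLC4A5 on the other strand, to which 4 and 6 reads were assigned in the knockdown libraries and 8 in the control. Smaller overlaps with better counted genes on the other strand affect SHMT1 (2.69% of its exon bases, SMCR8, with 516 and 402 reads in the knockdown libraries and 522 in the control) and ALDH1L2 (1.70%, C12orf45, with 604 and 536 reads and 551 in the control). The sources used here do not say whether counting used strand.

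The cytosolic folate enzymes MTHFD1 and SHMT1 had higher levels in both knockdown libraries than in the control. MTHFD1, the cytosolic enzyme with dehydrogenase, cyclohydrolase and synthetase activities (ENSG00000100714, chromosome 14, 64388031 to 64463457, plus strand), had 20.6 FPKM in knockdown 1 (19.9 to 21.3, 3006 reads), 17.6 FPKM in knockdown 2 (16.9 to 18.2, 2678 reads) and 14.0 FPKM in the control (13.4 to 14.6, 2210 reads). SHMT1, the cytosolic hydroxymethyltransferase (ENSG00000176974, chromosome 17, 18327860 to 18363563, minus strand), had 6.08 FPKM in knockdown 1 (5.63 to 6.55, 689 reads), 6.08 FPKM in knockdown 2 (5.64 to 6.54, 720 reads) and 4.61 FPKM in the control (4.24 to 5.01, 567 reads). Both knockdown intervals lay above the control interval for each gene, at 148% and 126% of the control for MTHFD1 and at 132% in each library for SHMT1. The log2 fold changes were 0.42 ± 0.19 for MTHFD1 (SE; 95% interval −0.05 to 0.89; limma adjusted p = 0.567) and 0.34 ± 0.17 for SHMT1 (SE; −0.09 to 0.76; limma adjusted p = 0.603), and neither was called by limma-voom (adjusted p = 0.353 and 0.476). ALDH1L1, the cytosolic relative of ALDH1L2 (ENSG00000144908, chromosome 3, 126103562 to 126197994, minus strand), was the member with the lowest level, at 1.36 FPKM in knockdown 1 (1.21 to 1.52, 290 reads), 2.17 FPKM in knockdown 2 (1.98 to 2.37, 484 reads) and 2.01 FPKM in the control (1.83 to 2.20, 466 reads). It was low in knockdown 1, and the intervals of knockdown 2 and the control overlapped (log2 fold change −0.14, 95% interval −0.81 to 0.53; limma adjusted p = 0.904).

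Start regions of MTHFD1 and SHMT1, above the control in both knockdown libraries, are shown beside those of MTHFD2 and MTHFD1L, which were not, with capitals as above. MTHFD1 held 1 E-box and 2 CCAAT matches, SHMT1 held 2 CCAAT matches, and MTHFD2 held 2 CCAAT matches and 1 antioxidant element. MTHFD1L, shown by 1 of its 4 windows, held there 1 match each to the C/EBP-ATF element, the E-box and the CCAAT box. Its windows that overlap the one shown held the same sites, and its window at positions 151006758 to 151007057 held 0 matches. MTHFD1L was the only matched member with a C/EBP-ATF match. The 2 windows of ALDH1L1 held 0 matches to these motifs.
MTHFD1, chr14:64388103-64388402, plus strand: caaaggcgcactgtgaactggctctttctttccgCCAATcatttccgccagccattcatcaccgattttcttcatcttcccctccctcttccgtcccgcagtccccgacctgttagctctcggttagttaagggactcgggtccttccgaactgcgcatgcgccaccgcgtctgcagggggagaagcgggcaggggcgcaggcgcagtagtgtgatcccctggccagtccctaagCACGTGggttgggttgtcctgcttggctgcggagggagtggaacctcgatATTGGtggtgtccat
SHMT1, chr17:18363501-18363800, minus strand: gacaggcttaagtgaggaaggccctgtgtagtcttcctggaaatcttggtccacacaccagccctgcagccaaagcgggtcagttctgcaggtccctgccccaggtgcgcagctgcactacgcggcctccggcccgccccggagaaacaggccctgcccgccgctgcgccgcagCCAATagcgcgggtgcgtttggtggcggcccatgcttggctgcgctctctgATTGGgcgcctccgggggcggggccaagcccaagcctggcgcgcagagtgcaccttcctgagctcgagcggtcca
MTHFD2, chr2:74198365-74198664, plus strand: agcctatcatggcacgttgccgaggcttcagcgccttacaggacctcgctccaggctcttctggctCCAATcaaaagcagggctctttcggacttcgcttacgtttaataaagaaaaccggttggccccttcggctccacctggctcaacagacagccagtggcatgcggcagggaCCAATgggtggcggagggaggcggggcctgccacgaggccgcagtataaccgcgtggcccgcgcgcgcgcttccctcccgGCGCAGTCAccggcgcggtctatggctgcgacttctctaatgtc
MTHFD1L, chr6:150866236-150866535, plus strand: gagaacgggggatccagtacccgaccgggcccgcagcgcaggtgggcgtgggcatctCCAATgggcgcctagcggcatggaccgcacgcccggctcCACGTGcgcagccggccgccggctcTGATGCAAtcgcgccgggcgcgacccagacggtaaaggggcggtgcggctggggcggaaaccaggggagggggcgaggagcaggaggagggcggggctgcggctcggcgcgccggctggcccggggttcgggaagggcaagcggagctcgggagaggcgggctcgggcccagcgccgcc

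The knockdown libraries differed from each other for most members. Knockdown 1 was below knockdown 2 for 9 of 10 members, beside 45.3% of all genes tested, and MTHFD1 was the exception. For SHMT1 the 2 levels were nearly equal, with knockdown 1 at 99.98% of knockdown 2, and the Poisson intervals overlapped. For the other 9 of 10 they were apart, beside 34.0% of all genes tested. Deeply counted genes have narrower intervals, and among the 6773 genes with at least the mean reads of ALDH1L1, the member with the fewest (413), the share apart was 48.7%; this minimum was set after the members' values were seen. The median over the members of the difference between the log2 fold changes of knockdown 1 and knockdown 2 was −0.54, against 0.03 over all genes tested. Among members with a lower level in knockdown 1, the level there ranged from 46.6% of that in knockdown 2 for ALDH1L2 to 84.8% for MTHFD1L, SHMT1 aside. Knockdown 1 was apart from the control by these intervals for 10 of 10 members, beside 45.7% of all genes tested and 63.8% of those 6773. Knockdown 2 was apart from the control for 5 of 10 (PHGDH, SHMT1, MTHFD1, MTHFD2 and ALDH1L2), beside 33.8% of all genes tested and 49.3% of those 6773, a share like that of genes at this depth in general. Intervals that are apart show a difference between libraries beyond counting error, which many genes had, and no more about the members.

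Both fold changes share the same control library, so they are given side by side. The knockdown libraries lay both below the control for 3 of 10 members (PHGDH, SHMT2 and ALDH1L2), beside 30.8% of all genes tested, and both above it for 2 of 10 (SHMT1 and MTHFD1), beside 42.5%. For the other 5 members knockdown 1 was below the control and knockdown 2 above. Over the members, the median log2 fold change was −0.41 for knockdown 1 and 0.08 for knockdown 2, against 0.06 and 0.03 over all genes tested. By compartment, the 4 mitochondrial enzymes had medians of −0.41 (knockdown 1) and 0.02 (knockdown 2), and those of the 3 cytosolic folate enzymes were 0.34 and 0.31. The medians of the 3 enzymes of serine synthesis, also cytosolic, were −0.68 and 0.01.

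**Figure D2:**
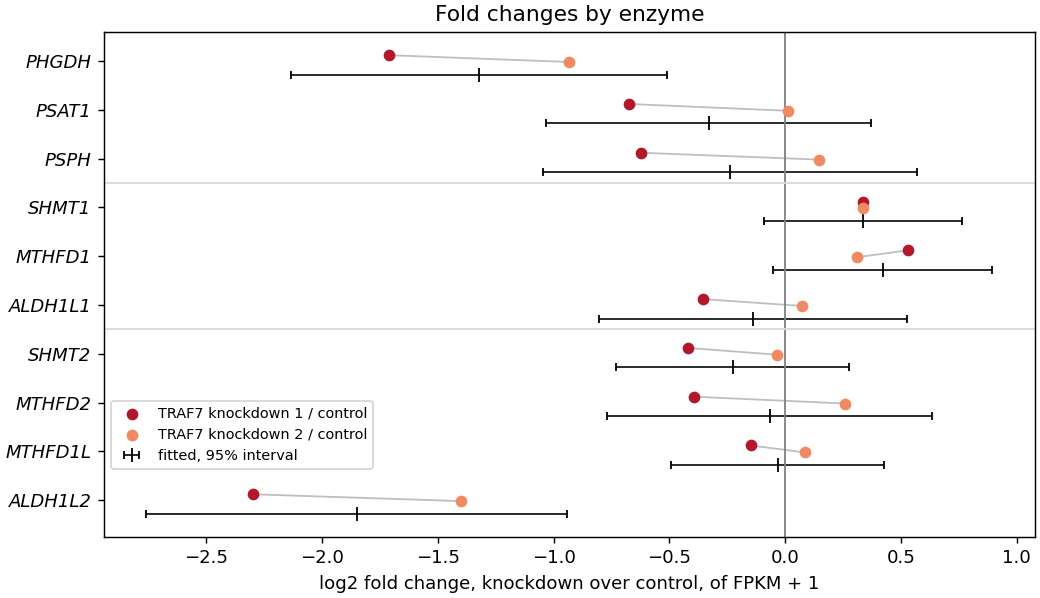
Log2 fold change of FPKM + 1 for each enzyme gene in knockdown 1 and knockdown 2 over the shared control (points), with the fitted value and its 95% interval by limma below (black). The interval lies wholly below 0 for PHGDH and ALDH1L2 and crosses 0 for the other 8 genes; adjusted over all genes tested, none of the 10 passed.

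The balance between mitochondrial and cytosolic enzymes was described as a share of FPKM, which is per exon length, within each step. ALDH1L2 made up 69.0% of the summed FPKM of ALDH1L2 and ALDH1L1 in knockdown 1 and 74.98% in knockdown 2, against 90.3% in the control. Counted in reads, the exact 95% binomial intervals of that share were 54.3% to 61.7% in knockdown 1, 62.5% to 67.5% in knockdown 2 and 84.0% to 86.5% in the control, with no overlap. SHMT2 made up 92.9% and 94.5% of the summed FPKM of SHMT2 and SHMT1 in the knockdown libraries and 95.9% in the control, and SHMT2 was thus 13.1 and 17.2 times SHMT1 in the knockdown libraries and 23.2 times SHMT1 in the control. MTHFD2 and MTHFD1L together made up 81.5% and 88.0% of their sum with MTHFD1 in the knockdown libraries, and 88.9% in the control. In each of these 3 steps the mitochondrial share was lower in both knockdown libraries than in the control, by the most for ALDH1L2. In knockdown 2 the summed FPKM of MTHFD2 and MTHFD1L was itself above the control (128.6 against 111.9), as was MTHFD1 (17.6 against 14.0). Counted in reads, the binomial intervals of the MTHFD2 and MTHFD1L share nearly touched there, at 78.6% to 80.04% in knockdown 2 and 80.08% to 81.5% in the control. The mitochondrial share of an expression level says nothing of protein or flux, which were not measured. These are values of 3 libraries without a test.

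**Figure D3:**
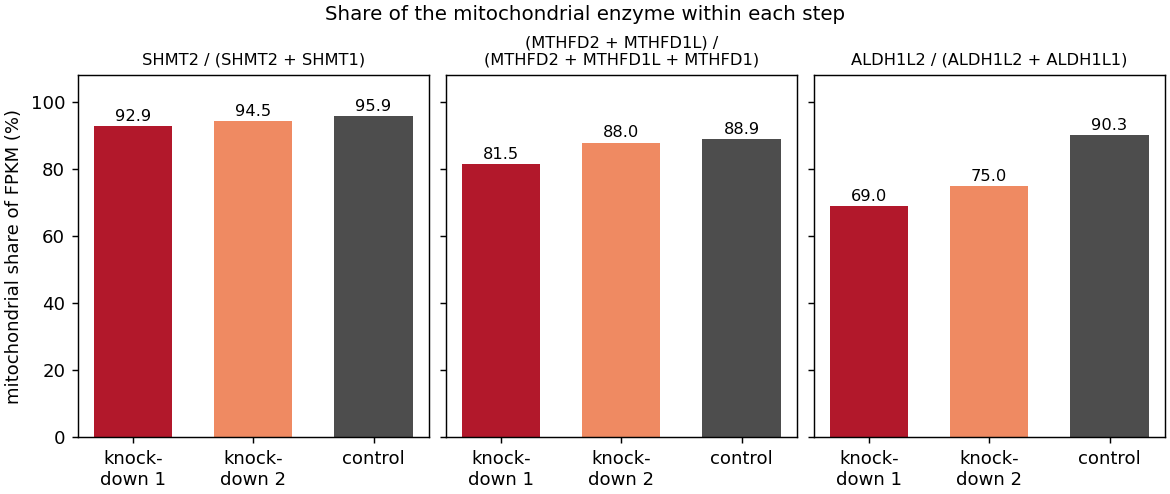
Share of the mitochondrial enzyme in the summed FPKM of each folate step, in percent, in TRAF7 knockdown 1, TRAF7 knockdown 2 and the control (1 bar per library). The ALDH1L2 share is 69.0% and 74.98% in the knockdown libraries and 90.3% in the control, and the other 2 steps differ by less.

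Summed FPKM of the 4 mitochondrial members was 173.5 in knockdown 1 and 239.5 in knockdown 2, against 237.8 in the control. The 3 enzymes of serine synthesis summed to 146.6 and 241.3 FPKM in the knockdown libraries and 266.8 FPKM in the control, and the 3 cytosolic folate enzymes to 28.04 and 25.8 FPKM in the knockdown libraries and 20.6 FPKM in the control. The order of the members by level was the same at both ends in all 3 libraries, with PSAT1, SHMT2 and MTHFD2 highest and ALDH1L1 lowest. PHGDH was the sixth in knockdown 1 and the fifth in knockdown 2, against the fourth in the control, and ALDH1L2 was the ninth and the eighth in the knockdown libraries, against the seventh in the control. ALDH1L2 and its neighbour SHMT1 in knockdown 2 had overlapping Poisson intervals, and the order of those 2 is not resolved there.

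The wider pathway was followed in 7 lists of 63 genes, of which 48 averaged 1 FPKM or more. By limma 0 of the 48 passed over all genes in either direction, where 0% of genes were called. An unadjusted limma p under 0.05 was found for 4 of the 48, beside 9.19% of all genes tested. By limma-voom 1 listed gene was called, ATF5, which was lower, beside 0.659% of 15034 genes called lower. The knockdown libraries were both above the control for 23 of the 48 and both below it for 16, near the 42.5% and 30.8% of all genes tested. The genes named from each list are up to 2 per direction, ranked by the smaller of their 2 log2 fold changes when both have the same sign.

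Of 9 other folate enzymes and folate transporters measured, 7 were above the control in both knockdown libraries, beside 42.5% of all genes tested, and 2 below, beside 30.8%. Their medians were 0.24 and 0.20 (log2) in knockdown 1 and 2, and some of the 7 were above the control by very little. TYMS, which makes thymidylate with a folate-bound carbon, was at 40.6 and 33.0 FPKM in the knockdown libraries and 27.96 FPKM in the control. GGH, which trims the glutamate tail of folates, was at 18.5 and 17.9 FPKM in the knockdown libraries and 13.9 FPKM in the control. On the other side was MTHFD2L, a mitochondrial relative of MTHFD2, at 4.46 and 4.62 FPKM in the knockdown libraries and 5.16 FPKM in the control. None of these 3 genes passed by limma, where the lowest adjusted p among them was 0.587 (GGH). The purine enzymes that use formyl folate, GART (57.2 and 61.1 FPKM in the knockdown libraries, 51.4 FPKM in the control) and ATIC (42.3 and 41.7 FPKM in the knockdown libraries, 37.1 FPKM in the control), were slightly above the control in both, and under quantile normalization both fitted log2 fold changes turned to −0.01.

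Of 9 measured genes of serine and glycine transport, 4 were above the control in both knockdown libraries and 4 below. SLC38A5, a transporter of glutamine, serine and glycine, was at 58.7 and 40.5 FPKM in the knockdown libraries and 31.0 FPKM in the control. SFXN1, which carries serine into mitochondria, was at 26.3 and 21.6 FPKM in the knockdown libraries and 17.7 FPKM in the control. SLC1A4, a neutral amino acid transporter that takes up serine, was on the lower side, at 6.46 and 10.9 FPKM in the knockdown libraries and 14.0 FPKM in the control, and the glycine transporter SLC6A9 was at 9.64 and 11.002 FPKM in the knockdown libraries and 14.9 FPKM in the control. The log2 fold changes were 0.64 ± 0.25 for SLC38A5, 0.41 ± 0.20 for SFXN1, −0.67 ± 0.30 for SLC1A4 and −0.49 ± 0.19 for SLC6A9 (SE; limma adjusted p between 0.528 and 0.588). Transport genes of the same list thus lay on either side of the control.

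In the methionine cycle and transsulfuration, with 9 measured, 3 were above the control in both knockdown libraries and 4 below. CBS, which joins serine to homocysteine, was at 22.8 and 26.8 FPKM in the knockdown libraries and 36.6 FPKM in the control (log2 fold change −0.55 ± 0.19, SE; limma adjusted p = 0.495). The annotation also holds a near-identical copy, CBSL, so the level of CBS is uncertain. MAT2B, a regulatory subunit of methionine adenosyltransferase, was at 11.4 and 11.3 FPKM in the knockdown libraries and 8.92 FPKM in the control. Its catalytic partner MAT2A had a log2 fold change of −0.09. AHCY, which clears S-adenosylhomocysteine, had 0.17, and −0.07 under quantile normalization. Of the glycine cleavage system only GCSH and DLD were measured, with GCSH at a log2 fold change of −0.15, while GLDC had 0 FPKM in all 3 libraries. Among 6 measured enzymes that consume serine, SPTLC1, a subunit of the enzyme that starts sphingolipid synthesis, had a log2 fold change of 0.30 and serine racemase (SRR) of 0.11, and SDSL, a serine dehydratase relative, was at 2.70 and 5.19 FPKM in the knockdown libraries and 5.69 FPKM in the control.

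Among 11 regulators known to act on these genes, 4 were above the control in both knockdown libraries and 4 below. ATF4 itself was at 226.7 and 240.3 FPKM in the knockdown libraries and 239.8 FPKM in the control, and is named although outside the rule, after its values were seen, since several members are known targets. ATF5, a related factor, was at 19.5 and 33.3 FPKM in the knockdown libraries, 37.0% and 63.3% of its 52.6 FPKM in the control (log2 fold change −1.02 ± 0.32, SE; limma adjusted p = 0.478; limma-voom adjusted p = 0.0120). CEBPB had a log2 fold change of −0.11, DDIT3 of 0.22 and MYC of 0.19, with limma adjusted p-values of 0.877, 0.721 and 0.756.

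**Figure D4:**
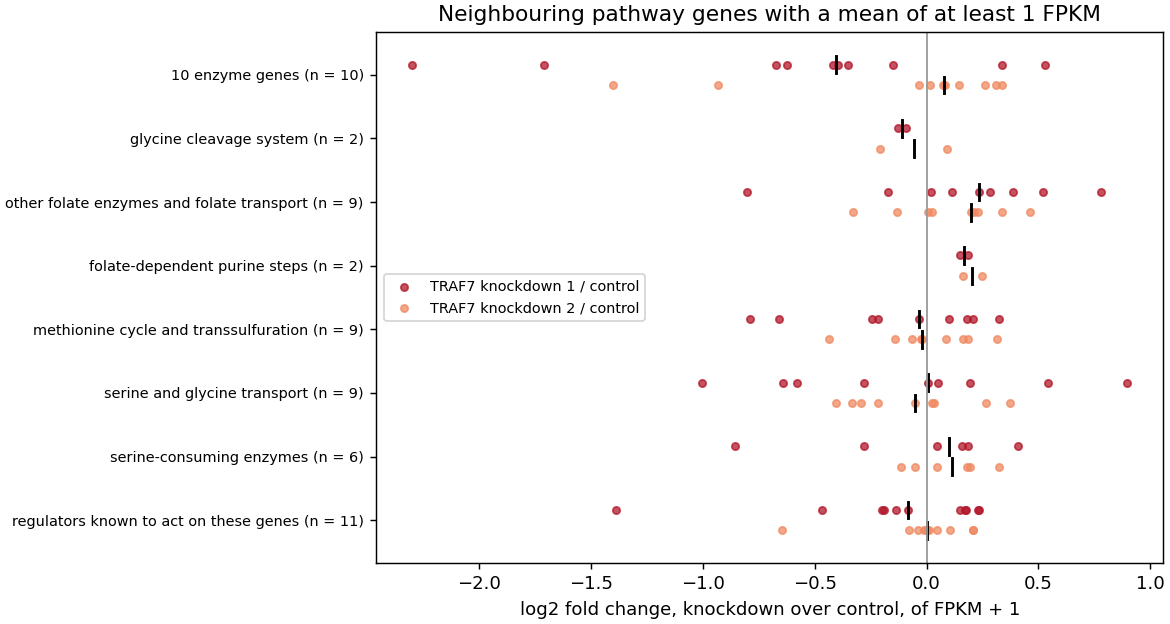
Log2 fold change of FPKM + 1 in knockdown 1 and knockdown 2 over the shared control for the 10 enzyme genes (top) and for each list of neighbouring pathway genes that averaged 1 FPKM or more; each point is a gene and each black tick a median. The lowest points are ALDH1L2 and PHGDH among the enzyme genes and ATF5 among the regulators.

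Genes with the pair of fold changes nearest to that of a member were sought among 6272 protein-coding genes averaging 5 FPKM or more, by Euclidean distance in log2 units over 3 libraries. Nearest to PHGDH were INHBE (distance 0.28), MMP17 (0.33), MLXIPL (0.34), ATP2A3 (0.35) and TRAF7 (0.41). INHBE encodes an inhibin beta subunit and MLXIPL a transcription factor that responds to carbohydrate. Nearest to ALDH1L2, but farther off, were ASS1 (0.50), MLXIPL (0.55), PHGDH (0.75), TRAF7 (0.79) and INHBE (0.95). ASS1, which makes argininosuccinate, was at 2.23 and 8.19 FPKM in the knockdown libraries and 21.2 FPKM in the control. Nearest to MTHFD2 were RRAS2 (0.02), EME1 (0.04), PDIA5 (0.06), AKR1C3 (0.08) and UBE2H (0.09), which like MTHFD2 lay below the control in knockdown 1 and above it in knockdown 2. With 3 libraries a small distance says only that the levels stood alike here.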

How the data were processed

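RNA was sequenced in 3 libraries. Per the file headers, the authors deposited FPKM values, 1 per gene and library. Bowtie, BWA and hg19 are listed, without role or version, per the submitters' processing notes; which tool counted the reads was not stated in the sources used. All 58735 identifiers matched GENCODE release 29 (GRCh38), whose symbols, positions and summed exon lengths were used. FPKM times that length divided by a constant of each library came out whole (within 0.05) for 100% of nonzero values, which gave reads. The divisors relative to the mean total equal median-of-ratios factors, so the deposited FPKM carry that scaling. FPKM per summed exon length depend on the annotated transcripts.

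The main test was limma 3.58.1 in R 4.3.3, with an intensity trend, on log2(FPKM + 1), at a mean of at least 1 FPKM, with Benjamini-Hochberg adjustment over all genes tested at 0.05; fold changes on that scale understate the change of low genes. The test and limma-voom (mean of at least 10 reads) were run on simulated reads with known folds. The simulated control varied as the simulated knockdown libraries did, so those runs could not check that assumption about the lone control. Poisson and binomial intervals (95%) cover counting error only. Alternatives were pseudocounts of 0.1, 0.5 and 5, no filter, a minimum mean of 5 FPKM, quantile normalization, rescaling to TPM, no trend, protein-coding genes only, limma-voom, and each knockdown library alone. Members and lists were chosen with earlier results of these data known. Named genes were the members, TRAF7, up to 2 genes per direction from each list (ranked by the smaller of both log2 fold changes of the same sign), and the 5 nearest genes of PHGDH, MTHFD2 and ALDH1L2; 1 gene so chosen is not reported here.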

Additional observations from a re-analysis of the deposited data

How the results depend on the processing

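Of 99 fitted log2 fold changes of the members under the alternatives that keep both knockdown libraries, 94 kept their direction and their side of the adjusted threshold, and 5 kept their direction and passed it (ALDH1L2 with no filter, with protein-coding genes only and by limma-voom, PHGDH with no filter and by limma-voom). Members passing numbered 2 with no filter, 1 with protein-coding genes only and 2 by limma-voom, and genes passing 1465, 13 and 130, with 3 at a mean of at least 5 FPKM; with no filter most residual variances are 0 and the fit is unreliable. The range of the adjusted p over all settings was 3.97e-11 to 0.649 for ALDH1L2 and 2.08e-07 to 0.649 for PHGDH. Without knockdown library 1, values with no test turned to higher for PSAT1, PSPH, MTHFD2, MTHFD1L and ALDH1L1: each knockdown library alone gave −0.68 to 0.013, −0.62 to 0.14, −0.39 to 0.26, −0.15 to 0.083 and −0.35 to 0.074. Members at least 2-fold from the control numbered 1 to 2 with 1 knockdown library left out, and 2 after rescaling to TPM, where PHGDH joined ALDH1L2; that rescaling shifted the median of all genes by −0.12. Counted in reads rather than per length, the mitochondrial share was 89.7%, 91.9% and 93.9% for SHMT2, 69.8%, 79.3% and 80.8% for MTHFD2 with MTHFD1L, and 58.0%, 65.03% and 85.3% for ALDH1L2 (knockdown 1, knockdown 2, control). The causes were not tested. No paired analysis was possible because the control has 1 library with no number.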
